A study of Mus musculus with 12 samples.

Results

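The genes described here are 7 coinhibitory receptor genes (Pdcd1, Lag3, Tigit, Havcr2, Ctla4, Cd160 and Btla) and the ectoenzyme gene Entpd1 in CD8 T cells of NOD mice. They were picked by name, with no measured value in the rule, but with earlier results of these data known. The study had reported Pdcd1, Tigit and Lag3 as higher in tetramer-positive than in tetramer-negative islet cells. The 8 genes are among the 32285 genes in the count tables. The mice, of the substrain NOD/ShiLtJ, were prediabetic females aged 10 to 15 wk, and in each of 2 rounds the islets and spleens of 10 mice were pooled. CD45.1+ CD8+ cells without CD4, B220 or CD11b were sorted by their binding of a Kd tetramer loaded with NRP-V7, a mimotope of an epitope of the islet protein IGRP. Tetramer-negative cells of the islets (Islet IGRP-), tetramer-positive cells of the islets (Islet IGRP+) and tetramer-positive cells of the spleen (Spleen IGRP+) were each profiled in both rounds by droplet single-cell RNA sequencing and T-cell receptor (TCR) sequencing. The mice were untreated in all groups, spleen cells were enriched for CD8 T cells with beads before the sort and, as the study states, were also gated as CD44+, and the mouse a cell came from is not recorded. What the Islet IGRP- cells recognise is not defined by the sort.

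Coinhibitory receptors are surface proteins that dampen signals from the TCR when they bind ligands on other cells. Most of them appear transiently on activated CD8 T cells and stay on cells that meet their antigen for a long time, and the product of Pdcd1, PD-1, is a known brake on diabetes in NOD mice. Havcr2 and Entpd1 are used as marks of the more differentiated cells among those, while Btla is also present on resting T cells.

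Of the 26818 cells listed, 24117 passed the limits on mitochondrial share (under 5% of UMIs, the unique molecular identifiers that count RNA molecules) and on genes per cell. The kept cells numbered 6429 and 8932 in the 2 Islet IGRP- libraries, 1204 and 1598 in Islet IGRP+ and 3524 and 2430 in Spleen IGRP+ (Round 1 first, here and below). Median UMIs per cell lay between 3793 and 4216.5 in the islet libraries and at 2590 and 2764.5 in the spleen libraries. Cd8a and Cd3e were abundant in all 6 libraries (537 to 945 CPM and 1348 to 1859 CPM), whereas Cd4 had 0 to 7 UMIs and Ncr1 0 to 3 in each library. The 9 listed myeloid and dendritic cell markers summed to 188 to 235 CPM and the 6 NK cell markers to 194 to 592 CPM. At least 2 UMIs of other cell types' markers were in 17.3% and 21.1% of Islet IGRP- cells and 26.2% and 30.9% of Islet IGRP+ cells. In Spleen IGRP+ the shares were 10.9% and 13.2%, so leaving such cells out took unequal parts of the groups. With cells that held at least 2 UMIs of other cell types' markers left out, edgeR called 4 of the 8 genes between the islet groups (Pdcd1, Lag3, Havcr2 and Entpd1, all higher in Islet IGRP+, where 1.33% of all genes were called and 0.264% higher) and no longer called Entpd1 between Spleen IGRP+ and Islet IGRP- (log2 fold change -0.42 ± 0.19, adjusted p = 0.173), and the other calls for the 8 genes in the 3 group comparisons were as given below. Any pair of libraries shared 2 to 64 cell barcodes, at most 1.03% of the smaller library.

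Levels are given as CPM, UMIs of the gene per 1000000 UMIs of the library, and were tested on UMIs summed per library. In such sums, fewer cells with a transcript and less transcript per cell cannot be told apart. Pdcd1, Lag3, Tigit, Havcr2 and Entpd1 had the order Islet IGRP+, Islet IGRP-, Spleen IGRP+ with no overlap between libraries of different groups, and Ctla4, Cd160 and Btla each departed from it. For scale, edgeR's quasi-likelihood test called 1.19% of all genes between the islet groups, 26.6% between Islet IGRP+ and Spleen IGRP+ and 22.4% between Spleen IGRP+ and Islet IGRP-.

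Pdcd1 was at 568 and 718 CPM in Islet IGRP+, at 291 and 273 CPM in Islet IGRP- and at 41.8 and 48.4 CPM in Spleen IGRP+. Lag3, whose product binds MHC class II and other ligands, was at 315 and 487 CPM in Islet IGRP+, at 178 and 201 CPM in Islet IGRP- and at 29.2 and 32.6 CPM in Spleen IGRP+. In both genes every Islet IGRP+ library stood above every Islet IGRP- library, and the spleen libraries were far below both.

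Tigit encodes a receptor for the poliovirus receptor family that competes with the activating receptor CD226. Its levels were 709 and 847 CPM in Islet IGRP+, 403 and 402 CPM in Islet IGRP- and 123 and 108 CPM in Spleen IGRP+. Havcr2, which encodes TIM-3, was at 49.7 and 90.5 CPM in Islet IGRP+, at 20.3 and 28.3 CPM in Islet IGRP-, and at 0.937 and 1.16 CPM in Spleen IGRP+. The spleen values of Havcr2 rested on 9 and 8 UMIs, so of the 8 genes Havcr2 was closest to absence in the spleen.

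Ctla4, whose product competes with CD28 for CD80 and CD86, was at 270 and 476 CPM in Islet IGRP+, at 257 and 384 CPM in Islet IGRP- and at 21.8 and 25.0 CPM in Spleen IGRP+. Its islet groups overlapped, and in both of them Round 2 was the higher library. Cd160, a receptor for HVEM on cytotoxic lymphocytes, was at 41.7 and 53.4 CPM in Islet IGRP+, at 26.6 and 24.7 CPM in Islet IGRP- and at 19.0 and 26.6 CPM in Spleen IGRP+. Islet IGRP+ was the highest group for Cd160 and the other two overlapped.

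Btla, another HVEM receptor, was the only one of the 8 genes with its highest level in Islet IGRP-, at 13 and 12.5 CPM. It was at 6.12 and 8.27 CPM in Islet IGRP+ and at 9.37 and 8.25 CPM in Spleen IGRP+, and these tetramer-positive groups overlapped. Entpd1, which encodes CD39, an enzyme that degrades extracellular ATP on the way to adenosine, was at 73.6 and 104 CPM in Islet IGRP+, at 29.4 and 33.9 CPM in Islet IGRP- and at 18.3 and 21.7 CPM in Spleen IGRP+.

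**Figure D1:**
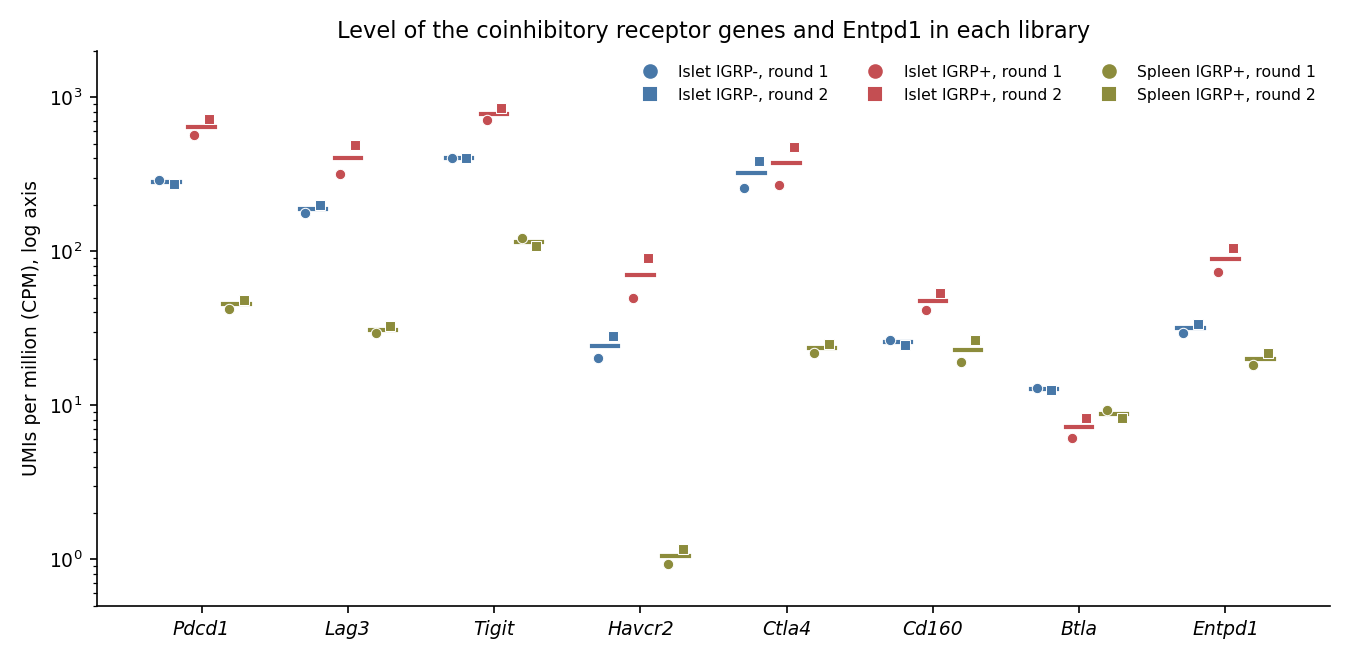
Level of each gene in the 6 libraries, in CPM on a log axis, with circles for Round 1, squares for Round 2 and a short line at the mean of each group. Havcr2 in the spleen lies near 1 CPM, and Btla is the only gene with Islet IGRP- on top.

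Islet IGRP+ and Islet IGRP- came from the same islets and differed in tetramer binding. With edgeR's quasi-likelihood test on the 6 libraries and Benjamini-Hochberg adjustment over 11277 genes, 2 of the 8 genes were called, both higher in Islet IGRP+, where 0.151% of all genes were called higher and 1.19% in either direction. They were Entpd1 (2.78-fold, log2 fold change 1.48 ± 0.15 (SE), adjusted p = 0.0231) and Pdcd1 (2.26-fold, 1.18 ± 0.17, adjusted p = 0.0445). Neither remained called in this test when any 1 of the 6 libraries was left out.

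Libraries of the same round deviated together, and with the round as a block 7 of the 8 genes were called, where 30.5% of all genes were (14.4% higher and 16.1% lower). In that edgeR fit Pdcd1 (adjusted p = 1.81e-05), Lag3 (6.27e-05), Tigit (1.91e-04), Havcr2 (1.63e-06), Cd160 (2.84e-04) and Entpd1 (1.63e-06) were higher in Islet IGRP+, and Btla was lower (log2 fold change -0.81 ± 0.19, adjusted p = 0.00595). Ctla4 was not called with the block (0.19 ± 0.14, adjusted p = 0.301) or without it (0.20 ± 0.26, adjusted p = 0.72). Without the block, edgeR gave Lag3 1.06 ± 0.19 (adjusted p = 0.0704), Havcr2 1.51 ± 0.25 (0.0594), Cd160 0.87 ± 0.17 (0.0848), Tigit 0.94 ± 0.21 (0.115) and Btla -0.84 ± 0.23 (0.16).

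Within a round the direction was the same for each gene. The Islet IGRP+ level was 1.95 and 2.64 times that of Islet IGRP- for Pdcd1, 2.45 and 3.19 times for Havcr2 and 2.50 and 3.08 times for Entpd1. For Ctla4 the ratios were 1.05 and 1.24, and for Btla they were 0.470 and 0.661. The ratio was farther above 1 in Round 2 for each of the 7 genes other than Btla.

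Islet IGRP+ and Spleen IGRP+ differ in tissue, in the CD44 gate and in the bead enrichment of spleen cells. Islets were isolated with collagenase and their cells incubated before staining, whereas spleens were processed mechanically. These differences cannot be told apart here, nor in the clones found in both tissues. Between tetramer-positive cells of the 2 tissues, 7 of the 8 genes were called, all of them higher in the islets, where 13.7% of all genes were called higher and 26.6% in either direction (edgeR, no block). The fold was 15.2 for Pdcd1 (log2 fold change 3.92 ± 0.19, adjusted p = 0.0012), 13.7 for Lag3 (3.77 ± 0.21, 0.0012), 16.7 for Ctla4 (4.06 ± 0.29, 0.00155) and 7.12 for Tigit (2.83 ± 0.23, 0.00203). Entpd1 was 4.71-fold higher (2.24 ± 0.16, adjusted p = 0.00155 in edgeR) and Cd160 was 2.23-fold higher (1.16 ± 0.17, 0.00798). For Havcr2 the fitted fold was 70.0 (6.13 ± 0.34, adjusted p = 0.0012), with 9 and 8 UMIs behind the spleen values. Btla was not called (-0.22 ± 0.24, adjusted p = 0.527). Without Spleen IGRP+ replicate 1 the call of Cd160 was lost.

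Spleen IGRP+ and Islet IGRP- differ in tissue, its preparation, tetramer binding and the CD44 gate on spleen cells, which cannot be told apart here. The 3 comparisons share libraries. In this one, 6 of the 8 genes were lower in the spleen, where 12.2% of all genes were called lower and 22.4% in either direction (edgeR, no block). Pdcd1 (log2 fold change -2.75 ± 0.18), Lag3 (-2.71 ± 0.20), Tigit (-1.89 ± 0.22), Ctla4 (-3.86 ± 0.29) and Havcr2 (-4.62 ± 0.33) had adjusted p between 0.00264 and 0.00572. Entpd1 differed less (-0.76 ± 0.15, adjusted p = 0.0212 in edgeR), and its call was lost without either Islet IGRP- library and without either spleen library. Cd160 was not called (-0.29 ± 0.17, adjusted p = 0.271), though in clones of 10 or more cells with the round as a block it was called lower (-0.67 ± 0.19, adjusted p = 0.0101, where 25% of all genes were called lower). Btla was called lower only with the round as a block (-0.62 ± 0.17, adjusted p = 0.0086, against 0.0992 without it, where 55.4% of all genes were called with the block and 29.2% were called lower).

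The genes that act with these receptors were read in 6 lists. Between Islet IGRP+ and Islet IGRP- edgeR without a block called 0 genes in each list, with 3 of 8 ligands, 3 of 10 activating counterparts, 1 of 5 adenosine pathway genes, 3 of 11 phosphatases and adaptors, 4 of 9 other inhibitory receptors and 9 of 18 regulators of exhaustion at an unadjusted p under 0.05. DESeq2 called 1 to 4 genes in each list, the most among the regulators with 2 higher and 2 lower, where it called 4.17% of all genes (1.37% higher and 2.79% lower). With the round as a block, where 14.4% of all genes were called higher and 16.1% lower, edgeR called 8 regulators higher and 4 lower, 3 activating counterparts higher and 1 lower, 3 other inhibitory receptors higher and 2 lower, and 2 ligands in each direction. Ikzf2 (1.31 ± 0.15) and Tox (1.07 ± 0.11), a factor needed for exhausted T cells, were among the higher, and Bach2 (-1.66 ± 0.15) and Tcf7 (-0.94 ± 0.12), factors of less differentiated T cells, among the lower. The same fit gave Klrc1, an inhibitory lectin-like receptor, as higher (1.40 ± 0.15) and Cd226, the activating counterpart of Tigit, as lower (-1.40 ± 0.14). The ligand gene Cd274, which encodes PD-L1, was lower as well (-1.23 ± 0.13), at 17 and 33.1 CPM against 49.4 and 65.2 CPM.

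Between the tissues, edgeR without a block called 7 of 10 activating counterparts higher in Islet IGRP+ and 2 lower, where 13.7% of all genes were called higher and 12.9% lower, with a median log2 fold change of 1.48 over the list against -0.03 over all genes. The costimulatory receptor Tnfrsf4, which encodes OX40, was at 106 and 132 CPM in Islet IGRP+ and at 1.77 and 1.45 CPM in the spleen (6.25 ± 0.23, adjusted p = 9.04e-04). Tnfrsf9 (5.29 ± 0.29) and Icos (4.58 ± 0.25) were likewise higher in the islets. In the adenosine pathway, to which Entpd1 belongs, 3 of 5 genes were higher and 1 was lower, and the adenosine receptor Adora2a rose by 1.14 ± 0.15 (adjusted p = 0.00585). Other inhibitory receptors went both ways, with 2 of 9 higher and 4 lower. Klrg1, a receptor of effector cells, was at 8.5 and 8.02 CPM in Islet IGRP+ against 61.1 and 72.7 CPM in the spleen (-2.92 ± 0.19, adjusted p = 0.00144), opposite to the 7 called receptor and ectoenzyme genes. Of the 8 ligand genes tested, Pdcd1lg2 (3.28 ± 0.25), which encodes PD-L2, and Lgals3 (0.65 ± 0.15) were higher in Islet IGRP+ and none was lower, and with the round as a block, where 55.1% of all genes were called (28% higher and 27.1% lower), 5 were higher and 2 lower. Of the 11 phosphatases and adaptors 3 were higher and 2 lower (6 and 3 with the block), with the adaptor gene Sh2d2a the most changed (3.02 ± 0.20). Of the 18 regulators 10 were higher and 2 lower, among them Tox2 (3.65 ± 0.26) and Nr4a3 (3.52 ± 0.41), a gene induced by TCR signals, as higher and Id3 (-2.54 ± 0.17) as lower.

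Spleen cells were shallower, so detection was counted on cells reduced at random to 1000 UMIs each (thinned), and 391 cells with fewer were left out of these shares. Pdcd1 had at least 1 UMI in 39.1% and 43.7% of Islet IGRP+ cells, 19.2% and 17.2% of Islet IGRP- cells and 3.91% and 4.85% of Spleen IGRP+ cells. Tigit was found in 49.4% and 57.7%, in 28.4% and 27.3%, and in 11% and 9.36% of cells in the same order. Entpd1 was found in 5.94% and 8.55%, in 2.70% and 2.58%, and in 1.94% and 2.32%.

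Havcr2 was found in 1 of 3452 and 2 of 2373 thinned spleen cells, or 0.0290% (exact binomial 95% confidence interval 0.000733% to 0.161%, counting error only) and 0.0843% (0.0102% to 0.304%). In the islets it was found in 5.18% and 6.30% of IGRP+ cells and 1.59% and 2.36% of IGRP- cells. Free RNA was not removed, so islet cells with a UMI of Ccr7, a receptor of cells that circulate through lymph nodes, and none of Gzmb, Ccl5, Cxcr6, Nkg7, Gzmk or Cd44 served as a reference. Their definition was made after the data were seen, 1695 of them could be thinned, and their median depth of 3249 UMIs was below the islet medians. Cells without a UMI of these genes also hold little free RNA of them, so their shares can understate the background in other cells. Cxcr6, Nkg7 and Ccl5 were moreover among the genes most like members across islet cells (below). The reference cells had a UMI of Pdcd1 in 1.24% of cells, of Lag3 in 1.30%, of Cd160 in 0.236%, of Entpd1 in 0.118% and of Havcr2 in 0 of 1695, which allows a share of up to 0.177%.

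For Tigit and Ctla4 these Ccr7+ reference cells of the islets had shares of 8.85% and 7.96%, still below the 27.3% and 19.2% of the lower Islet IGRP- libraries. Btla had 0.767% there against 1.48% and 1.17% in Islet IGRP- and 0.509% and 1.09% in Islet IGRP+. As Btla is also present on resting T cells, these reference cells may hold Btla transcripts of their own. Whether its islet shares are above background therefore cannot be told from them. In the spleen only 51 cells of the same definition could be thinned (median depth 2968.5 UMIs), and a UMI of Pdcd1, Lag3, Tigit, Havcr2, Ctla4 or Entpd1 was in 0 of them, which allows up to 5.88%. Cd160 was in 1 of these 51 cells and Btla in 2. The spleen shares of Pdcd1, Lag3, Havcr2, Ctla4 and Entpd1 were all below that limit, so at this depth they are not separated from background by these cells.

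Several of the genes were often found in the same cell. At least 2 of the 8 genes had a UMI in 48.2% and 62.8% of Islet IGRP+ cells, in 24.3% and 26.0% of Islet IGRP- cells and in 2.11% and 2.49% of Spleen IGRP+ cells, against 2.3% of the Ccr7+ reference cells of the islets and 0 of the 51 reference cells of the spleen, which allows up to 5.88%. The mean was 55.5% ± 10.3 (SD, n = 2) in Islet IGRP+, 25.1% ± 1.25 in Islet IGRP- and 2.3% ± 0.263 in Spleen IGRP+. Islet IGRP+ thus exceeded Islet IGRP- by 30.3 percentage points (24.0 in Round 1 and 36.7 in Round 2) and Spleen IGRP+ by 53.2 points (46.1 and 60.3). With 2 libraries a group the exact two-sided permutation test over libraries gave p = 0.333 for both differences, the smallest value it can give.

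At least 4 of the genes were found in 4.84% and 9.07% of Islet IGRP+ cells and in 1.94% and 2.62% of Islet IGRP- cells. If the genes were detected independently of each other, the shares in each library would give 3.20% and 7.17% in Islet IGRP+ and 0.356% and 0.429% in Islet IGRP-. For at least 2 genes, independent detection would give 49.99% and 64.4% in Islet IGRP+, slightly more than was found, and 21.1% and 22.9% in Islet IGRP-, slightly less. In Islet IGRP+ the share with at least 2 genes was thus no higher than the single shares give. In the spleen, at least 4 genes were found in 0.0290% and 0% of cells.

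**Figure D2:**
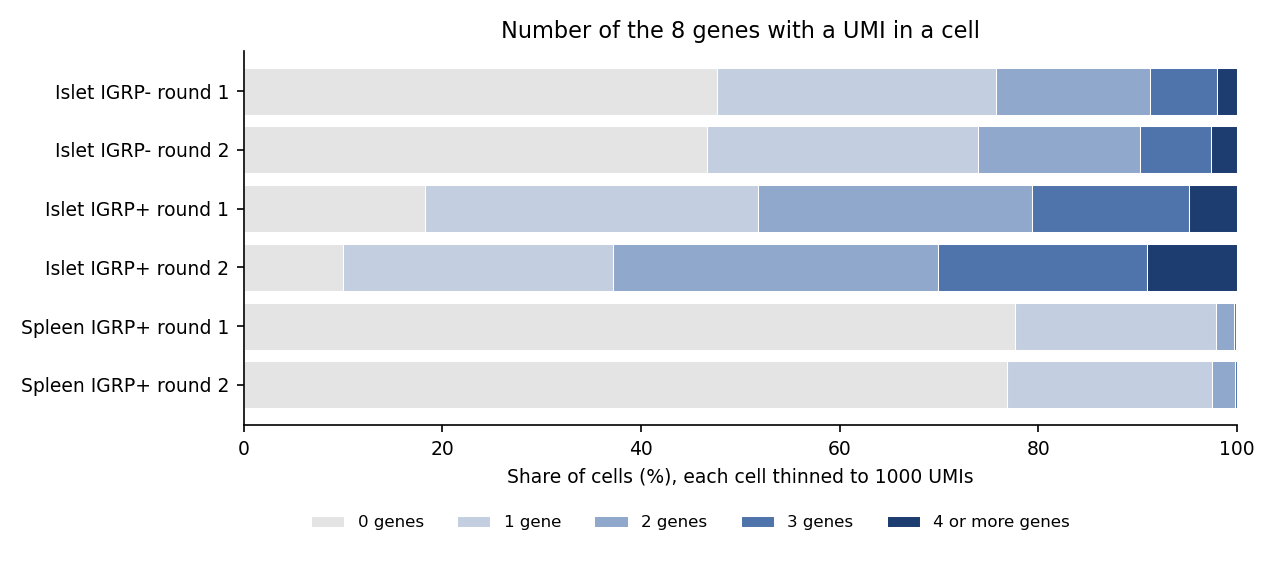
Share of cells, in percent, with a UMI of 0, 1, 2, 3 or 4 or more of the 8 genes in each library, after thinning to 1000 UMIs. Cells with none of the genes made up 47.7% and 46.6% of Islet IGRP-, 18.3% and 9.97% of Islet IGRP+ and 77.6% and 76.8% of Spleen IGRP+.

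Pairs of genes stood farther above independent detection in Islet IGRP- than in Islet IGRP+. For each pair, the share of cells with both genes was divided by the product of the 2 single shares, and a pair was read where at least 10 cells were expected from the product. Over 22 pairs the median ratio was 1.67 and 1.64 in the Islet IGRP- libraries, and over 18 pairs it was 1.15 and 1.04 in the Islet IGRP+ libraries. Above the product were 20 and 21 of the 22 pairs in Islet IGRP- and 16 and 14 of the 18 in Islet IGRP+. The pair of Lag3 and Havcr2 had the highest ratio of those read in Islet IGRP-, at 3.57 and 3.26, and was at 1.82 and 1.26 in Islet IGRP+. In Islet IGRP- Round 1, 47 cells had both Lag3 and Havcr2, and 5.70% of the cells with Lag3 had a UMI of Havcr2 compared with 0.980% of the cells without.

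Pdcd1 with Lag3 was at 1.92 and 1.89 in Islet IGRP- and 1.21 and 1.04 in Islet IGRP+, and Pdcd1 with Entpd1 at 2.46 and 1.83 against 1.39 and 1.15. Pairs with Btla differed among themselves. Btla with Pdcd1 was at 0.996 and 0.845 in Islet IGRP-, and Btla with Tigit at 0.935 and 1.14, whereas Btla with Ctla4 was at 1.55 and 1.58 (28 and 41 cells). Within Islet IGRP+, Cd160 with Tigit was below the product in both rounds, at 0.648 and 0.770. The ratios are descriptions of cells from 1 library each, in which all genes share the cell's capture of RNA. A ratio cannot exceed 1 divided by the larger single share, so it has less room in Islet IGRP+, where most single shares were higher. The part of this in the difference between the islet groups was not tested.

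Clone size was the other axis of the study. A clone was a set of cells in a library with the same α and β CDR3 nucleotide sequences, and 13667 of the kept cells had exactly 1 productive chain of each kind. Clones were grouped as singlets, clones of 2 to 9 cells and clones of 10 or more cells. In Islet IGRP- these groups held 1389, 716 and 887 cells in Round 1 and 2959, 1064 and 1460 cells in Round 2. Islet IGRP+ had only 12 and 14 singlets, which were not tested.

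In Islet IGRP-, 7 of the 8 genes were higher in clones of 10 or more cells than in singlets, where 21.1% of all genes were called higher and 40.1% in either direction (edgeR, library as a block, 10940 genes). Pdcd1 was at 115 and 95.2 CPM in singlets and at 460 and 472 CPM in the large clones (log2 fold change 1.99 ± 0.09, adjusted p = 1.57e-16). Entpd1 went from 4.43 and 6.96 CPM to 58.8 and 86.3 CPM (10.9-fold, 3.45 ± 0.20, adjusted p = 1.77e-14 in edgeR) and Havcr2 from 5.91 and 4.67 CPM to 32.0 and 72.9 CPM (9.46-fold, 3.24 ± 0.25, 1.72e-11). In these genes the classes did not overlap between libraries.

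Lag3 (2.24 ± 0.12, adjusted p = 1.64e-15), Cd160 (1.62 ± 0.17, 5.21e-09), Tigit (1.55 ± 0.10, 1.38e-13) and Ctla4 (1.05 ± 0.10, 4.2e-10) were also higher by edgeR. Ctla4 lost its call without the library as a block (adjusted p = 0.0644). Btla was at 13.6 and 12.4 CPM in singlets and 9.16 and 11.9 CPM in large clones (-0.43 ± 0.21, adjusted p = 0.102). The share of cells with at least 2 of the 8 genes was 9.09% and 8.62% in singlets, 44.3% and 40.3% in clones of 2 to 9 and 45% and 53.3% in clones of 10 or more.

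The difference from singlets was already called in small clones. Between clones of 2 to 9 cells and singlets of Islet IGRP-, the same 7 genes were called higher, where 15.9% of all genes were called higher and 28.8% in either direction. Pdcd1 differed by 1.92 ± 0.09, Havcr2 by 2.61 ± 0.27 and Entpd1 by 2.55 ± 0.23 on the log2 scale, with edgeR adjusted p of 1.04e-15, 1.77e-08 and 3.16e-10. Havcr2 was at 38.7 and 30.1 CPM in clones of 2 to 9 against 32.0 and 72.9 CPM in clones of 10 or more, so its level was higher in the large clones in Round 2 and lower in Round 1, and the step was not called (0.63 ± 0.20, adjusted p = 0.11 in edgeR). Between clones of 10 or more and clones of 2 to 9, Entpd1 was the only 1 of the 8 genes called (0.90 ± 0.17, adjusted p = 0.0016 in edgeR), where 0.804% of all genes were called higher and 2.65% in either direction. Its levels were 47.7 and 32.1 CPM in the small clones against 58.8 and 86.3 CPM in the large ones, so Round 2 carried most of the difference. DESeq2 did not call it (adjusted p = 0.397), and neither did edgeR without Islet IGRP- replicate 2 (0.31 ± 0.19, adjusted p = 1).

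In Islet IGRP+, 0 of the 8 genes were called between clones of 10 or more and clones of 2 to 9 by edgeR or by DESeq2, where edgeR called 0.201% of all genes and 859 genes had an unadjusted p under 0.05. At that unadjusted level 3 of the 8 genes passed, Entpd1 (0.89 ± 0.27, adjusted p = 0.26), Cd160 (-0.57 ± 0.25, 0.56) and Pdcd1 (-0.22 ± 0.10, 0.591). Entpd1 was at 32.5 and 72.7 CPM in the small clones and at 86.6 and 104 CPM in the large ones. It was called, with 1 of 8 genes, without either Islet IGRP- library or without Islet IGRP+ replicate 2.

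In the spleen, 4 of the 8 genes were higher in clones of 10 or more than in singlets, where 8.34% of all genes were called higher and 15.5% in either direction (edgeR, library as a block). Tigit was at 7.03 and 12.1 CPM in singlets and at 164 and 133 CPM in large clones (3.84 ± 0.28, adjusted p = 8.13e-12). Pdcd1 was at 7.03 and 9.10 CPM against 62.0 and 55.2 CPM (2.67 ± 0.31, adjusted p = 8.32e-08), and Lag3 at 5.02 and 15.2 CPM against 39 and 36.2 CPM (1.82 ± 0.38, 8.43e-04). For these 3 genes the classes did not overlap. Over both libraries, Tigit had 15 UMIs in singlets and 1130 in large clones, a ratio of 16.3 (exact 95% counting interval 9.85 to 29.2).

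Entpd1 had 0 and 1 UMIs in spleen singlets against 93 and 91 in large clones, a ratio of 39.8 with a counting interval of 7.06 to 1582 (adjusted p = 1.06e-04 in edgeR, whose fitted fold for so few UMIs is not a bound). Havcr2 had 0 UMIs in spleen singlets and 3 and 5 in large clones, and at 1.05 CPM over both libraries the large clones were under the 1.81 CPM that 3 counts would give in the singlets, so no fold is given. Ctla4 was at 29.1 and 19.7 CPM in singlets and at 25.5 and 22.5 CPM in large clones (-0.29 ± 0.28, adjusted p = 0.579), and its classes overlapped. Cd160 (0.49 ± 0.34, adjusted p = 0.405 in edgeR) and Btla (-1.10 ± 0.40, 0.059) were not called either. Without Spleen IGRP+ replicate 1, Pdcd1 and Tigit were the 2 genes still called. Without either Islet IGRP+ library, which share the fit's estimate of spread, Btla was called lower as well, which made 5 genes. Spleen singlets numbered 252 and 162 and were deeper than the large clones, with median UMIs of 3856 and 4138 against 2613 and 2837, and the part of this in the result was not tested.

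The clone size difference was not the same in both groups of cells. In a test of the difference itself, Tigit rose less with clone size in Islet IGRP- than in Spleen IGRP+ (-2.28 ± 0.35 on the log2 scale, adjusted p = 4.53e-05) and Ctla4 rose more (1.34 ± 0.31, adjusted p = 0.00545), so 2 of the 8 genes were called where 7.79% of all genes were (3.18% higher and 4.61% lower). For Pdcd1 (-0.68 ± 0.39, adjusted p = 0.336), Lag3 (0.41 ± 0.49, 0.709), Cd160 (1.13 ± 0.42, 0.102) and Btla (0.67 ± 0.44, 0.417) edgeR gave no call. Without the library as a block 0 of the 8 genes were called, with Tigit (adjusted p = 0.217) and Ctla4 (0.481) under 0.05 before adjustment. The call of Ctla4 was also lost without Spleen IGRP+ replicate 1, and without Islet IGRP- replicate 1 Cd160 was called as well, which made 3 genes.

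**Figure D3:**
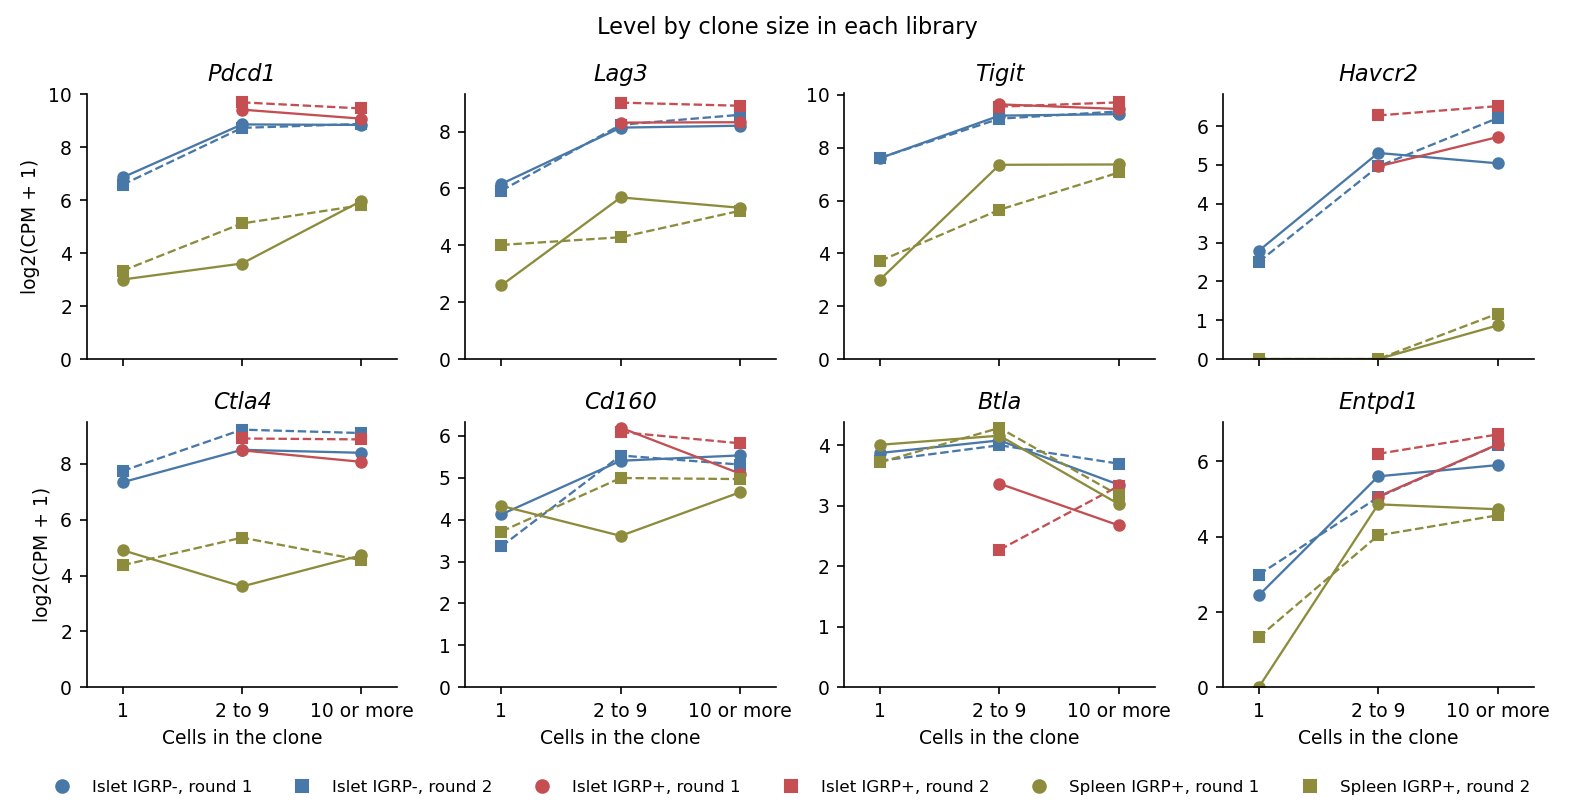
Level of each gene, as log2(CPM + 1), in cells of singlets, of clones of 2 to 9 and of clones of 10 or more, with a line for each library. Singlets of Islet IGRP+ (12 and 14 cells) are not drawn. Tigit climbs from 7.03 and 12.1 CPM to 164 and 133 CPM in the spleen, where Ctla4 stays between 11.2 and 40.1 CPM.

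When only clones of 10 or more cells were compared, a choice made after the levels by clone size were seen, Islet IGRP+ and Islet IGRP- no longer differed by a call in any of the 8 genes. Here edgeR called 0 of 8, with or without the round as a block, none of the 8 had an unadjusted p under 0.05 without it, and 0.0193% of all genes were called (310 genes had an unadjusted p under 0.05). The log2 fold changes were 0.50 ± 0.22 for Pdcd1, 0.49 ± 0.21 for Entpd1, 0.52 ± 0.36 for Havcr2 and 0.31 ± 0.22 for Lag3, all smaller than over whole libraries, and -0.19 ± 0.30 for Ctla4. These values do not show that large clones of both groups are alike. Clones of 10 or more made up 579 of 673 and 1085 of 1191 paired cells in Islet IGRP+ and 887 of 2992 and 1460 of 5483 in Islet IGRP-. Clone size was counted in each library, so 10 cells are a larger part of the paired cells in Islet IGRP+ than in Islet IGRP-. The class is therefore not the same degree of expansion in both groups.

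Among the regulators of exhaustion, 11 of 18 were higher in the large clones of Islet IGRP- than in singlets and 3 lower (edgeR, median log2 fold change 0.81 against -0.02 over all genes, of which 21.1% were called higher and 19% lower). Tox2 rose by 3.05 ± 0.12 (adjusted p = 2.85e-18), Prdm1, which encodes Blimp-1, by 3.25 ± 0.18 and Tox by 2.13 ± 0.12. In the spleen 10 of 18 were higher and 2 lower, where 8.34% of all genes were called higher and 7.21% lower, with Tox again higher (2.08 ± 0.20, adjusted p = 2.1e-09). Of the other inhibitory receptors, Klrc1 was higher in large clones of both Islet IGRP- (1.53 ± 0.13) and the spleen (3.57 ± 0.22), and Klrg1 was at 85.6 and 88.0 CPM in large spleen clones against 4.02 and 6.07 CPM in spleen singlets (3.93 ± 0.37, adjusted p = 1.42e-09). Among the ligands, Cd274 was lower in the large clones of Islet IGRP- (-1.52 ± 0.14, adjusted p = 3.37e-10) and Cd80, a ligand of CTLA-4, was higher (3.26 ± 0.22, 2.73e-13).

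Clones of the same size class still differed among themselves. In Islet IGRP+ Round 2, the 12 clones of at least 30 cells ranged from 13.6 to 203 CPM for Entpd1 (median 86.9) and from 0 to 262 CPM for Havcr2 (median 80.4), with 1 clone at 0. Pdcd1 ranged from 345 to 1051 CPM and Tigit from 607 to 1303 CPM in the same clones. The clone at 0 for Havcr2 held 34 cells and 146560 UMIs, and it also gave the lowest Entpd1 level, from 2 UMIs. The part of counting error in these ranges was not tested. Each of these 12 clones had at least 2 of the 8 genes in 54.8% to 73.3% of its cells. In Islet IGRP- Round 2 the corresponding share ran from 33.9% to 71.4% over 14 clones, so some tetramer-negative clones lay within the range of the tetramer-positive ones. In Round 1 it ran from 40.9% to 55.8% over 6 Islet IGRP+ clones (median 48.4%). Over 6 Islet IGRP- clones of Round 1 it ran from 31.5% to 73.8% (median 46.2%), so the highest clone there was tetramer-negative. The 13 spleen clones of Round 2 ran from 0% to 13.3%.

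Many tetramer-positive clones were found in both tissues of a round, which allows cells with the same TCR to be compared. There were 31 such clones in Round 1 and 35 in Round 2. The TCRs of the 3 with the most cells are shown because the levels that follow belong to cells with exactly these sequences. They are CDR3 nucleotide sequences read from 5′ to 3′ as in the contig tables, in lower case throughout.
Clone 1 α: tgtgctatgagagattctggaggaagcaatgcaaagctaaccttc
Clone 1 β: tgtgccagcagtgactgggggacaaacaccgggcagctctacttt
Clone 2 α: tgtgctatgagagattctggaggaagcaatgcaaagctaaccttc
Clone 2 β: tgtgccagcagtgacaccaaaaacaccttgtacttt
Clone 3 α: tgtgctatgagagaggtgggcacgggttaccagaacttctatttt
Clone 3 β: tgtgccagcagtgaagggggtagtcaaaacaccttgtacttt

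Clone 1 (Round 2) had 193 cells in the islets and 323 in the spleen, and Pdcd1 was at 557 CPM in the former and 37.9 CPM in the latter. Clone 2 (Round 2), with the same α chain and another β chain, had 205 and 164 cells and Pdcd1 at 554 and 86.4 CPM. Clone 3 (Round 1) had 86 and 265 cells and Pdcd1 at 409 and 67.0 CPM. Havcr2 was at 107, 30.1 and 40.9 CPM in the islet cells of clones 1, 2 and 3 and at 0 in their spleen cells. For Entpd1 the levels were 140, 78.5 and 120 CPM in the islets and 22.7, 15.5 and 27.4 CPM in the spleen. The tissue difference in these genes was therefore seen among cells with 1 TCR.

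Over the 17 clones with at least 20 cells in each tissue, Pdcd1, Lag3, Tigit, Havcr2 and Ctla4 were each higher in the islets in 17 of 17. Entpd1 was higher in the islets in 15 of 17, Cd160 in 10 and Btla in 9. Median levels over these clones were 573 CPM in the islets and 57.6 CPM in the spleen for Pdcd1, 387 and 20.5 CPM for Ctla4 and 37.3 and 26.4 CPM for Cd160. Clones of 1 round share their libraries, so these counts carry no test.

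**Figure D4:**
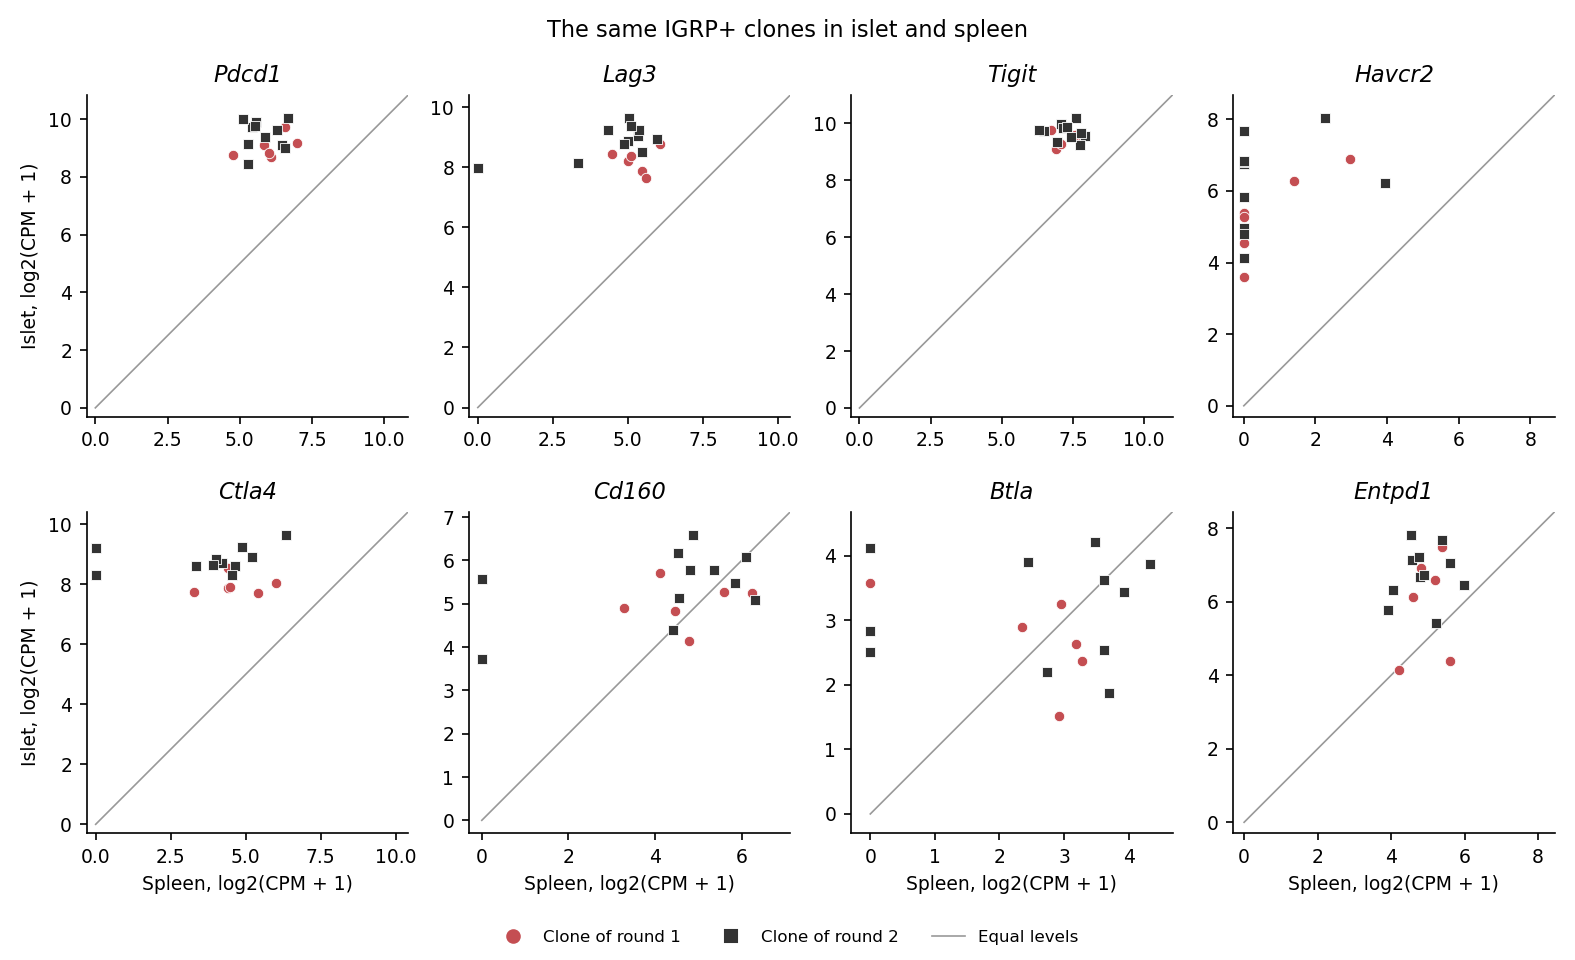
Level of each gene in the islets (vertical) against the spleen (horizontal), as log2(CPM + 1), for the 17 clones with at least 20 cells in both tissues, with circles for clones of Round 1, squares for Round 2 and a line of equal levels. All points of Pdcd1, Lag3, Tigit, Havcr2 and Ctla4 lie above the line, and those of Btla lie on both sides (9 above, 8 below).

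With the libraries summed over shared clones only, 7 of the 8 genes were called higher in the islets by edgeR, where 12.1% of all genes were called higher and 23.3% in either direction. Pdcd1 differed by 3.53 ± 0.22 (adjusted p = 0.00178), Lag3 by 3.52 ± 0.22 (0.00165), Ctla4 by 3.99 ± 0.30 (0.00207), Tigit by 2.49 ± 0.24 (0.00347), Entpd1 by 2.04 ± 0.19 (0.00305) and Cd160 by 0.92 ± 0.21 (0.029) on the log2 scale. Havcr2 was at 51.3 and 89.7 CPM in the islets and at 0.803 and 1.21 CPM in the spleen (adjusted p = 0.0016). Btla was at 5.82 and 8.41 CPM against 7.22 and 7.72 CPM (0.05 ± 0.24, adjusted p = 0.901). In clones of 10 or more cells, whether shared or not, Cd160 lost its call (0.83 ± 0.24, adjusted p = 0.0546 in edgeR) and 6 genes were called, where 20.8% of all genes were (11.3% higher).

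The ratios of pairs also differed with clone size. In the large clones of Islet IGRP- the median ratio of observed to independent detection was 1.11 over 14 pairs and 1.1 over 18 pairs, against 1.67 and 1.64 over all cells of these libraries. In singlets it was 2.63 over 3 pairs and 2.48 over 5 pairs. In the large clones of Islet IGRP+ it was 1.25 over 13 pairs and 1.07 over 18 pairs. In Islet IGRP- the large clones thus lay below the whole libraries, while in Islet IGRP+ they lay slightly above them (1.15 and 1.04). The sets of pairs read differ, and clones of 2 to 9 cells were not read. The highest value a ratio can take is also lower where detection is higher. Tigit was found in 14.4% and 14.6% of thinned Islet IGRP- singlets and in 48.8% and 47.0% of cells in the large clones. The part of this in the ratios was not tested.

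**Figure D5:**
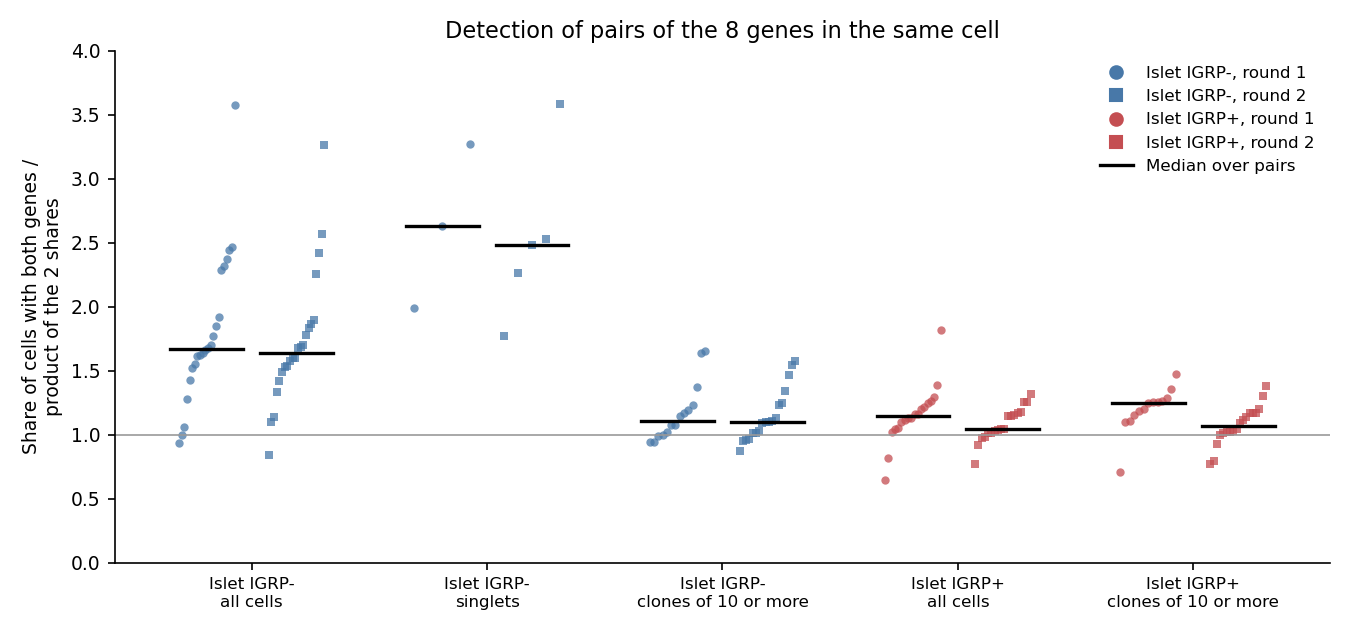
Share of cells with both genes of a pair divided by the product of the 2 single shares, for pairs with at least 10 expected cells, with a point for each pair, a bar at the median of each library and a line at 1. Medians are 1.67 and 1.64 over all Islet IGRP- cells and 1.11 and 1.1 in the large Islet IGRP- clones.

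Within single islet libraries, the genes whose thinned counts followed a member most closely across cells were few and the correlations were weak, over 4 libraries and 4626 genes compared. Cxcr6, a chemokine receptor of tissue-resident cells, was the gene most like Pdcd1 (mean Pearson r 0.193), Havcr2 (0.181) and Entpd1 (0.183). Nkg7, a cytotoxic granule gene, was most like Lag3 (0.209), and the chemokine gene Ccl5 was most like Tigit (0.24). Icos, a costimulatory receptor, was most like Ctla4 (0.164), and the chemokine gene Xcl1 was most like Cd160 (0.143). No gene reached a mean r of 0.1 with Btla. These values describe cells that share libraries and depth, and carry no test.

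In the GENCODE M21 annotation of GRCm38, the build called mm10 in the processing notes, Pdcd1 lies at chr1:94038305-94052553 on the minus strand and Ctla4 at chr1:60887000-60915832 on the plus strand. Lag3 lies at chr6:124904361-124911705 (minus), Tigit at chr16:43648867-43664146 (minus), Btla at chr16:45224315-45257670 (plus), Havcr2 at chr11:46454935-46481255 (plus) and Entpd1 at chr19:40612366-40741602 (plus). Cd160, at chr3:96798763-96829351 on the minus strand, overlaps Pdzk1 on the other strand, which had 0 to 15 UMIs per library. No measured gene overlaps the other 7.

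As most of the genes were higher in the islets than in the spleen, the 250 bases before their RefSeq starts (GRCm38.p6) were searched on both strands. The motifs were TGANTCA, a loose form of a motif of AP-1 factors in which N is any base, and TGGAAA, a motif of NFAT factors. Promoters were given for 7 of the 8 genes (9 promoters), without Lag3. TGANTCA was found in 1 of them, that of Havcr2, against 6.75% of 32851 promoters, and TGGAAA in 1, that of Ctla4, against 18.6%. The window of Havcr2, the gene that was nearest to absence in the spleen, is chr11:46454681-46454930 on the plus strand. Capitals mark the match to TGANTCA, which has T in the place of N. A match is a run of letters and not a binding site.
Havcr2 promoter: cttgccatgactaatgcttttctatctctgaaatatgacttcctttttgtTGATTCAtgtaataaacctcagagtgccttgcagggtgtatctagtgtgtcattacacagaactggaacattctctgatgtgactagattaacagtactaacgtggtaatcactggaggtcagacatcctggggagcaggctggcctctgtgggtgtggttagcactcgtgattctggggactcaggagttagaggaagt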

How the data were processed

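Raw UMI counts per gene and cell were deposited by the authors, who aligned the reads to mm10 and counted them with Cell Ranger (5.0.1 per the file headers), together with tables of TCR contigs. From these, cells with under 5% mitochondrial UMIs and 200 to 3500 genes (islets) or 200 to 2000 genes (spleen) were kept. Free RNA was not removed and no doublet caller was run, but 530 cells with over 1 productive β chain were left out in an alternative. Kept UMIs per library ranged from 5880696 to 40469961. UMIs were summed per library, or per library and clone size class of at least 20 cells, and tested with edgeR 4.0.16 (TMM, filterByExpr, quasi-likelihood test) and Benjamini-Hochberg adjustment at 0.05 over all genes tested. DESeq2 1.42.0 was an alternative, as were other normalization, low-count filters, cell filters and clone definitions, and each library was left out in turn. Clone size fits had the library as a block. R 4.3.3 and Python 3.11.15 were used.

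The libraries of a round came from the same pool of mice, and over 5618 genes the differences between rounds correlated at 0.859, 0.874 and 0.821 between groups, so the round pairs the libraries. The rounds also differed in read lengths and sequencing kit, as the study states, so mouse pool and sequencing cannot be told apart between rounds. Without a block the p-values measure the spread between libraries of 2 pools. With the round or the library as a block, they measure how differences within a round or library vary between these 2 pools. The estimate of spread is shared by all groups of a fit. Intervals are exact and, like limits for a count of 0 (3 counts), cover counting error only. The 8 genes and the lists were chosen with earlier results of these data known. The 8 genes are described in every comparison, and of each list up to 4 genes were named, those with the largest called changes, at 20 CPM or more in the higher group and in the same direction in both rounds. The fits were tested on simulated counts. Some marker genes are not reported here.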

Additional observations from a re-analysis of the deposited data

Results flagged for a closer look

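The difference in Tigit between clones of 10 or more cells and singlets was smaller in Islet IGRP- than in Spleen IGRP+ by a test of that difference (-2.28 ± 0.35 on the log2 scale, adjusted p = 4.53e-05, edgeR). Tigit was at 194 and 195 CPM in Islet IGRP- singlets and at 618 and 664 CPM in the large clones, against 7.03 and 12.1 CPM and 164 and 133 CPM in the spleen. Spleen singlets thus held 15 UMIs of Tigit in all, and the part of free RNA in the islet singlet level was not tested.

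For Ctla4 the same test gave a larger difference in Islet IGRP- (1.34 ± 0.31, adjusted p = 0.00545, edgeR). Its large clones were at 336 and 550 CPM in Islet IGRP- against 161 and 213 CPM in singlets, and in the spleen the levels of both classes lay between 19.7 and 29.1 CPM.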

How the results depend on the processing

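Of values called for single genes, 420 kept their direction and call under an alternative and 33 lost the call, and of values not called 358 stayed so, 28 gained a call and 21 changed sign. Between Islet IGRP+ and Islet IGRP-, the 2 genes called became 7 with the round as a replicate block, 6 with DESeq2, 6 with no filter on low counts, 4 without cells that held other cell types' markers, 1 with β chain cells only, 1 with at most 10 cells per clone, 0 in clones of 10 or more cells with or without the block (chosen after seeing the data), and 0 to 0 without 1 library. Leaving out 1 library gave 6 to 7 genes between Islet IGRP+ and Spleen IGRP+, 5 to 6 between Spleen IGRP+ and Islet IGRP-, 7 to 7 for clone size in Islet IGRP-, 2 to 5 in the spleen, 0 to 1 in Islet IGRP+ and 1 to 3 for the difference between groups. No filter on low counts gave 1 gene for clone size in Islet IGRP+, and the difference between groups had 0 genes without the library block. Without cells that held other cell types' markers, 1 gene (Entpd1) lost its call between Spleen IGRP+ and Islet IGRP-. Calls that the paired fits with the round as a block changed are given beside the results. The cause of these changes was not tested.

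The share of cells with 2 or more genes differed between the islet groups by 16.8 points at 500 UMIs (23.1 to 37.6 without 1 library), and from the spleen by 27.7 points at 500 UMIs and 79.0 without thinning (45.9 to 60.5).

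Log2 values that changed sign, none of them called, were Ctla4 between the islet groups (-0.19 and -0.19 in clones of 10 or more without and with the block, -0.11 to 0.47 without 1 library), Btla between the tissues (0.053 and 0.085 in shared clones, 0.065 and 0.074 in clones of 10 or more, each without and with the block, and -0.42 to 0.0037 without 1 library), and Ctla4 for clone size in the spleen (-0.46 to 0.033). For clone size in Islet IGRP+ they were Lag3 (0.035 with no filter, 0.022 with the chain of most UMIs, -0.10 to 0.27 without 1 library), Btla (-0.53 to 1.24), and, at 5 or more cells, Cd160 (0.068) and Entpd1 (-0.024). For the difference between groups they were Lag3 (-0.45 to 1.14) and Havcr2 (1.23 with DESeq2).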
